A study of Mus musculus with 10 samples.

Results

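The genes described here are the mouse orthologs of 29 genes linked to amyotrophic lateral sclerosis (ALS) or spinal muscular atrophy. They were matched by symbol to the deposited tables, except Ang, whose symbol is not there and came from reference gene names. The rule uses no measured value. All 29 were found among the 51912 genes of the count files, and 26 of them passed the filter on low counts and were among the 11630 genes tested. Spg11, Ccnf and Ang did not pass it. The libraries were made from motor neurons cut by laser from frozen lumbar spinal cord sections of 12 µm, as 1 pool of about 50 cells per mouse. Cells were taken if the nucleus and nucleolus were in view and the cell area was above 200 µm2, which leaves out motor neurons under that size. The pools came from 5 HSA-NRTN transgenic mice and 5 wild-type littermates, each group with 3 females and 2 males. In HSA-NRTN mice neurturin, a growth factor related to GDNF, is made in muscle fibres under the human skeletal actin promoter, so the transgene acts outside the captured cells and cannot be used here to check the labels. The labels name no disease model, no treatment, no strain and no age for either group, and neither group is said to carry a mutation in any of these genes.

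Amyotrophic lateral sclerosis and spinal muscular atrophy are diseases in which motor neurons degenerate, and large motor neurons are among the cells lost. The genes known to cause or modify them fall into a few classes: proteins that bind RNA, proteins that sort damaged proteins and organelles into autophagy or to the proteasome, proteins of endosomes and membrane contacts, proteins of the cytoskeleton and synapse, and proteins of mitochondria and redox defence. Most of them are active in nearly every cell, and they are named for what their mutation does, not for where they are expressed.

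The libraries held between 1875971 and 6641695 gene counts and between 14090 and 19675 detected genes. The shallowest was HSA-NRTN replicate 2, which also had the smallest aligned share and the highest summed oligodendrocyte markers, and wild-type replicate 1 had the fewest genes detected. The same 2 libraries had the highest mitochondrial shares, 11.9% and 12.9% of gene counts, and values of several members below are also given without 1 or both of them. All 6 motor neuron markers (Chat, Slc5a7, Slc18a3, Isl1, Mnx1 and Prph) had counts in all 10 libraries, with summed levels from 2139 to 3597 CPM (counts scaled to library size) in the wild-type group and from 2817 to 4183 CPM in the transgenic group. Chat ran from 70.7 to 98.1 CPM in wild-type and from 98.5 to 151 CPM in HSA-NRTN pools, without overlap, as 0.645% of all tested genes did in this direction. The other markers overlapped, and Mnx1 leaned the other way, with 11.3 to 28.0 CPM and 7.55 to 14.5 CPM. Markers of other cells were lower: oligodendrocyte markers summed to 193 to 598 CPM and 243.5 to 1382 CPM, interneuron markers to 5.16 to 373 CPM and 43.8 to 249 CPM, astrocyte markers to 19.0 to 79.9 CPM and 25.2 to 83.2 CPM, and microglial markers to 2.18 to 12.2 CPM and 1.19 to 8.11 CPM, each in wild-type and HSA-NRTN pools in that order. Endothelial markers summed to 0.344 to 14.5 CPM and 3.86 to 23.8 CPM in the same order. In such pools fewer cells of a type and less RNA per cell cannot be told apart. Each library stands for 1 mouse, so p-values measure the spread between single pools of different animals.

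Levels of different genes were compared in TPM, which divides counts by transcript length before scaling to the library. The 26 tested disease genes were well expressed in wild-type motor neurons, with a median level of 55.0 TPM against 15.3 TPM over all genes tested. Stmn2, encoding stathmin-2, a tubulin-binding protein of axon growth and repair, was the most abundant at 3127 ± 431 TPM (SD, n = 5), at the 99.8th percentile of tested genes. It was followed by Sod1, the cytosolic superoxide dismutase, at 1869 ± 1058 TPM, and by Sqstm1, the autophagy receptor p62, at 1532 ± 411 TPM. With the principal transcript as the length, these 3 genes stood apart from the rest. The lowest wild-type values were 842 TPM for Sod1 and 1216 TPM for Sqstm1, and the highest of the next gene, Pfn1, was 613 TPM. Below this step no neighbours in the order were separated, since the wild-type libraries of each gene overlapped those of the next.

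A middle group held Pfn1 (378 ± 199.6 TPM), Hnrnpa2b1 (301 ± 63.8 TPM), Chchd10 (215 ± 48.4 TPM), Ubqln2 (200.3 ± 72 TPM), Chmp2b (154 ± 13.8 TPM) and Matr3 (117 ± 22.3 TPM). Tuba4a, C9orf72, Vcp, Atxn2, Fig4, Nek1, Tardbp, Vapb, Ewsr1, Tbk1, Tia1, Cfap410 and Optn followed with means from 98.9 TPM down to 22.7 TPM. Smn1 (19.8 ± 11.01 TPM), Taf15 (8.17 ± 2.28 TPM), Unc13a (6.66 ± 3.59 TPM) and Hnrnpa1 (3.26 ± 2.18 TPM) were the lowest of the tested members. The order depends on the length used. With all annotated exons joined in place of the principal transcript, Stmn2 stayed first at 1616 TPM, Sod1 fell from rank 2 to rank 3 at 427 TPM, and Hnrnpa2b1 from rank 5 to rank 9 at 106 TPM. Chchd10 then came next below Sod1 at 283 TPM, and whether the libraries of Sod1 still lay apart was not read at that length.

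**Figure D1:**
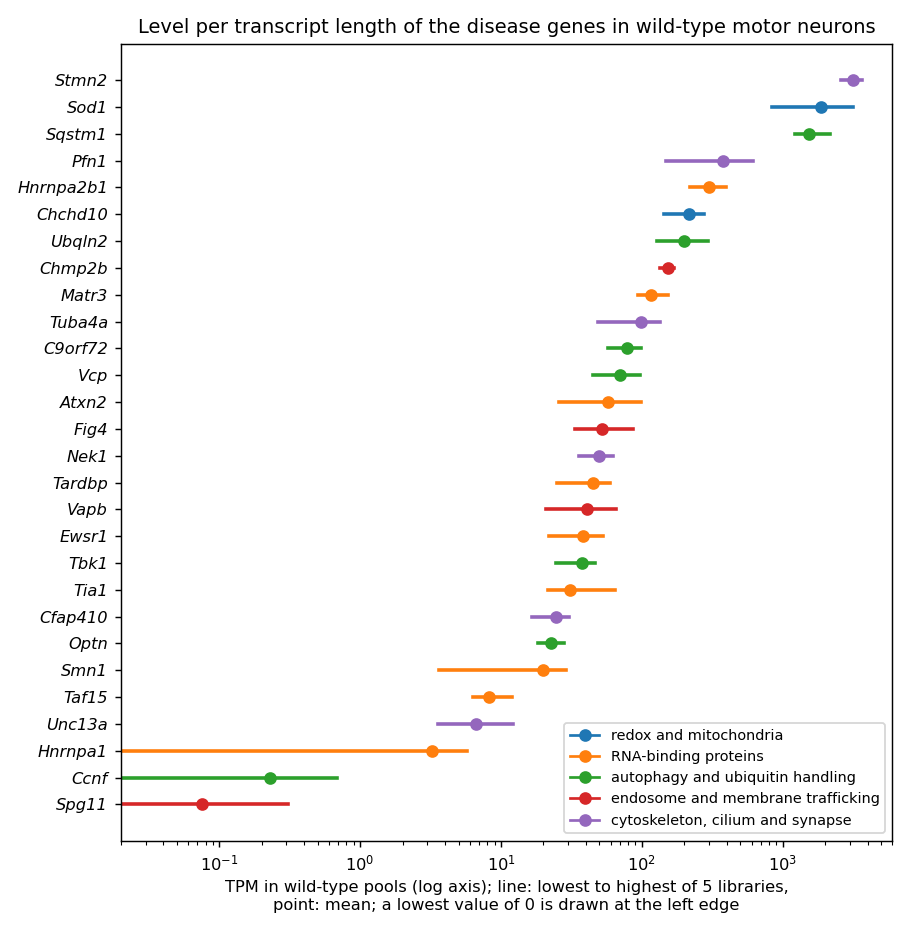
TPM on a log axis for the disease genes in the 5 wild-type pools, ordered by mean. Points are means, lines run from the lowest to the highest library, and colours give the role group; Ang, at 0 counts in every library, is not drawn. Stmn2, Sod1 and Sqstm1 lie above the other genes, and Ccnf and Spg11 lie below 1 TPM.

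The 3 members that did not pass the filter had few counts in most libraries. Ang, a secreted ribonuclease, had 0 counts in all 10 libraries, which allows up to 3 counts per group, or 0.130 CPM for wild-type and 0.138 CPM for HSA-NRTN. This floor and all counting intervals cover counting error only, because reads were amplified without molecular identifiers. Of its exon bases 18.2% lie also in exons of Rnase4, which had 53 counts in wild-type replicate 2. In every library reads were set aside as ambiguous between genes, 0.737% to 2.12% of all reads. Reads on the shared bases may thus be missing from the count of Ang, though the options of the read counter are not given. Ccnf, encoding cyclin F, the substrate receptor of a ubiquitin ligase, had 7, 0, 4, 0 and 0 counts in wild-type replicates 1 to 5 and 5, 0, 5, 19 and 0 in HSA-NRTN replicates 1 to 5. Neither group of Ccnf values lies clear of the other. Spg11, encoding spatacsin, which acts in the renewal of lysosomes, had 0, 1, 5, 0 and 0 counts in wild-type and 0, 0, 32, 51 and 1 counts in HSA-NRTN replicates 1 to 5. Its 2 high libraries were HSA-NRTN replicates 3 and 4, which also had the most genes detected, 19233 and 19675, and the part of that in the result was not tested. DESeq2, which kept this gene, gave it an adjusted p of 0.704. Of the exon bases of Spg11 13.8% lie also in exons of Eif3j1 on the other strand.

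For HSA-NRTN against wild-type pools, edgeR's quasi-likelihood test called 0 of the 26 tested members at a Benjamini-Hochberg adjusted p under 0.05, beside 1 of 11630 genes in all (0.0086%). At an unadjusted p under 0.05 there were 2 members, Chchd10 and Fig4, which is 7.69% of the members beside 4.83% of all genes. Chchd10 was the 1 in the higher direction, with 2.41% of all genes, and Fig4 the 1 in the lower, with 2.42%. DESeq2 called 1 member, Chchd10, with 0.8% of its 15741 genes called and 0.61% called higher, and limma voom called 0, with 0.0258% called. Of the 26 members, 9 had a higher and 17 a lower estimate in HSA-NRTN pools, and the median log2 fold change was -0.13, beside -0.01 over all genes, of which 51.4% were lower. In the 4 male pools alone the members' median was 0.08, so the sign of this median is not shared by both sexes. The animal numbers in the titles fall into 2 runs, and the HSA-NRTN males were in 1 run and the wild-type males in the other. Genotype and run cannot be told apart among males. The HSA-NRTN males also had the lowest gene counts, 3257700 and 1875971. Without HSA-NRTN replicate 2 the estimates of 6 members went from above to below 0: Matr3 (-0.20), Hnrnpa2b1 (-0.16), Optn (-0.14), Vcp (-0.34), Unc13a (-0.27) and Nek1 (-0.053). Without wild-type replicate 1 that of Atxn2 turned to 0.27, and those of Tuba4a and Unc13a turned to -0.039 and -0.047. No member differed by more than 1 on the log2 scale, where 9.97% of all genes did, and 2 members differed by more than 0.5, where 30.2% of all genes did. The members are more abundant than most tested genes, with a median of 139 CPM against 24.1 CPM, and their biological coefficient of variation was lower, with a median of 0.394 against 0.527.

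**Figure D2:**
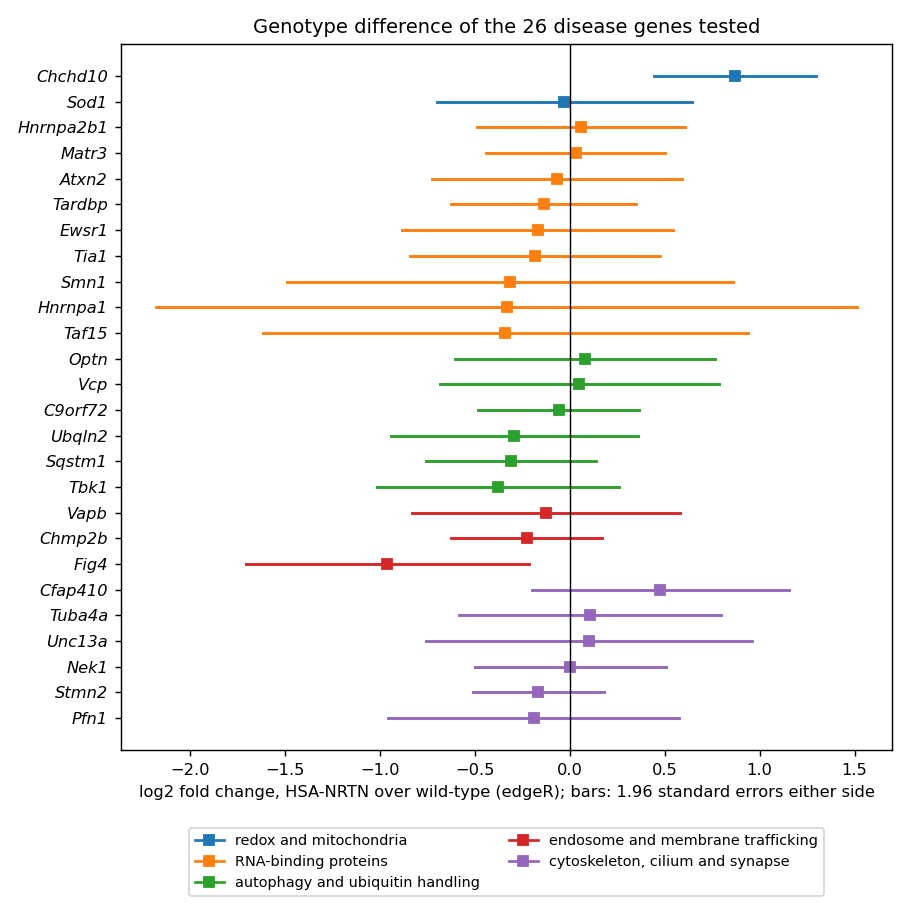
Log2 fold change of HSA-NRTN over wild-type from edgeR for the 26 tested disease genes, grouped and coloured by role. Bars extend about 95% normal limits from each estimate (n = 5 pools per group). The bars of Chchd10, at 0.87, and Fig4, at -0.96, do not cross 0, and those of the other 24 do.

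Chchd10 encodes a small protein of the mitochondrial intermembrane space, where it is tied to cristae structure. The gene (ENSMUSG00000049422) lies at chr10:75933130-75937747 on the plus strand of GRCm38. In wild-type replicates 1 to 5 its levels were 196, 156, 205, 118 and 156 CPM, and in HSA-NRTN replicates 1 to 5 they were 291, 270.2, 253.1, 354 and 348 CPM. Every HSA-NRTN pool lay above every wild-type pool. It was the only one of the 26 members whose groups did not overlap, a pattern that 1.25% of all tested genes showed in either direction and 0.645% showed in this direction. The means were 166 ± 35.2 CPM and 303 ± 45.7 CPM (SD, n = 5 each), a ratio of 1.83. The log2 fold change in edgeR was 0.87 (SE 0.22, approximate 95% interval 0.44 to 1.30), with an unadjusted p of 0.00114 and an adjusted p of 0.350, and the gene stood at rank 38 of 11630 by p. DESeq2 gave 0.87 with an adjusted p of 0.0151, and limma voom gave 0.90 with an adjusted p of 0.319. The authors' deposited table lists a log2 fold change of 0.81 with an adjusted p of 0.0133, and 1.04% of its 14738 genes with an adjusted p are under 0.05, 0.753% in the higher direction.

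The size of the Chchd10 difference moved little between settings, while its place relative to the threshold depended on the tool. Over all 25 alternatives the log2 fold change lay between 0.77 and 0.97. Its adjusted p ran from 0.0151 in DESeq2 to 0.998 in the edgeR test of females alone. The log2 fold change was 0.90 among females alone and 0.84 among males alone, where genotype and run of animal numbers cannot be told apart. The interaction of genotype with sex was 0.03 (SE 0.45, with an unadjusted edgeR quasi-likelihood p of 0.941 and an adjusted p of 0.9996). With both libraries of lower quality left out the log2 fold change was 0.97 with an edgeR adjusted p of 0.308. Raw counts of Chchd10 ran from 500 to 2485 per library. Of its exon bases 11.4% are shared with genes on the other strand, chiefly Mmp11, and the kit does not mark strand. Mmp11 itself had 0 counts in the wild-type group and 22 in the HSA-NRTN group, where Chchd10 had 6761. These counts do not measure the reads on the shared bases. The part of the overlap in the Chchd10 difference was not tested.

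The bases upstream of the annotated RefSeq start are shown for Chchd10, because it is the member with the clearest separation, for Fig4, because it has the other small p, and for Hnrnpa2b1, because its window has the highest observed over expected CG ratio of the members. They come from RefSeq on GRCm38.p6, at chr10:75932880-75933129 on the plus strand, chr10:41303242-41303491 on the minus strand and chr6:51469895-51470144 on the minus strand, and read 5′ to 3′ on the strand of the gene with each CG in capitals.
Chchd10: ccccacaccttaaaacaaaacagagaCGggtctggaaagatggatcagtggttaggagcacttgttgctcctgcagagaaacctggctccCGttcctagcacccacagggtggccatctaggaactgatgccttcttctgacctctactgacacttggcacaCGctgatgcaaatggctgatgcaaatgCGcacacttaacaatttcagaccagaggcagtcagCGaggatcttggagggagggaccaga
Fig4: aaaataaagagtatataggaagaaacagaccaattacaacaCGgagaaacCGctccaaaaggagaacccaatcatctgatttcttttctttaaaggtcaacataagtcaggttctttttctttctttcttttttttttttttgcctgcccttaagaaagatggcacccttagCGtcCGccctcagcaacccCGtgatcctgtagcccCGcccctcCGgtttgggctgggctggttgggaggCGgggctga
Hnrnpa2b1: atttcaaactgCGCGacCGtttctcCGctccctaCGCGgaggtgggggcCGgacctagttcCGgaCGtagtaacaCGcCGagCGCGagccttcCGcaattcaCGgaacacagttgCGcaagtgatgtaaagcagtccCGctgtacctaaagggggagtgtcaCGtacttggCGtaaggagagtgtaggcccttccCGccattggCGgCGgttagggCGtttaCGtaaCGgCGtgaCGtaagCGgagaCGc
The full window of each gene runs a little past its start site. The Chchd10 window held 5 CG dinucleotides, an observed over expected ratio of 0.247. The Fig4 window held 13 with a ratio of 0.712, and the Hnrnpa2b1 window 34 with a ratio of 1.28. Windows were found for 25 of the 29 members, 28 windows in all. The ratio was above 0.6 in 23 of the 28 (82.1%), beside 35.8% of all 32851 windows in the table, and their median GC content was 60.5% beside 52.7%. Chchd10 is thus one of the few members whose window is poor in CG.

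Searched on both strands, the GC box GGGCGG was in 64.3% of the members' windows and 35.7% of all windows, and the ETS core CCGGAAG in 17.9% and 8.86%. The palindromic NRF1 element was in 7.14% of the members' windows, those of Tia1 and Vapb, and in 0.971% of all windows. The TATA box TATAAA was in 14.3% and 13.6%. The letters of an estrogen-related receptor element (TCAAGGTCA), an extended E-box (TCACGTGA) and a cyclic AMP response element (TGACGTCA) were in 0 of the members' windows and in 0.423%, 0.974% and 1.79% of all windows. The upstream stretch of Chchd10 held none of these motifs and that of Fig4 held a GC box. The windows of all genes were not matched to those of the members in GC content or in expression. These matches describe letters in a short window only.

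Sod1, the other redox member and the first gene tied to inherited ALS, showed no genotype difference beyond its spread. Its levels were 306, 353, 901, 1106 and 449 CPM in wild-type and 425, 569.6, 552, 917 and 590.1 CPM in HSA-NRTN replicates 1 to 5. The HSA-NRTN values all lay inside the wild-type range. The edgeR log2 fold change was -0.03 (SE 0.34), and with upper quartile scaling its sign turned to 0.02.

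Fig4 encodes a phosphoinositide phosphatase that works with the scaffold Vac14 and the kinase Pikfyve on endosomes and lysosomes. The gene (ENSMUSG00000038417) lies at chr10:41188172-41303260 on the minus strand. In wild-type replicates 1 to 5 its levels were 160.2, 89.2, 70.6, 59.7 and 71.6 CPM, and in HSA-NRTN replicates 1 to 5 they were 66.1, 14.6, 46.3, 45.0 and 58.9 CPM. In 4 of 5 HSA-NRTN pools it lay below the lowest wild-type pool, and HSA-NRTN replicate 1 overlapped the wild-type range. The means were 90.3 ± 40.5 CPM and 46.2 ± 19.7 CPM, and the edgeR log2 fold change was -0.96 (SE 0.38, approximate 95% interval -1.70 to -0.21), with an unadjusted p of 0.0231 and an adjusted p of 0.921. The authors' deposited table lists -0.79 with an adjusted p of 0.374. The extremes lie in the 2 libraries named above for their quality: 160.2 CPM in wild-type replicate 1, and 14.6 CPM, from 27 counts, in HSA-NRTN replicate 2. The log2 fold change was -0.64 without the first, -0.74 without the second and -0.43 without both. No exon bases of Fig4 are shared with another annotated gene.

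The other 2 tested members of endosomes and membrane contacts, Chmp2b and Vapb, had estimates below 0 that did not pass the test. Chmp2b, a subunit of the ESCRT-III complex that buds vesicles into endosomes, had one of the tightest wild-type ranges of all members, with 159, 146, 152, 138 and 154 CPM. The HSA-NRTN pools held 122, 136, 155, 121 and 107 CPM, so that 4 of 5 lay below the wild-type minimum and 1 inside the range. The log2 fold change was -0.23 (SE 0.20, edgeR adjusted p 0.999), and it stayed negative in every alternative, from -0.31 to -0.17. Vapb, an endoplasmic reticulum protein that tethers this membrane to other organelles, had 149 ± 54.9 CPM and 137 ± 70.8 CPM, with a log2 fold change of -0.13, which was -0.42 without HSA-NRTN replicate 2.

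**Figure D3:**
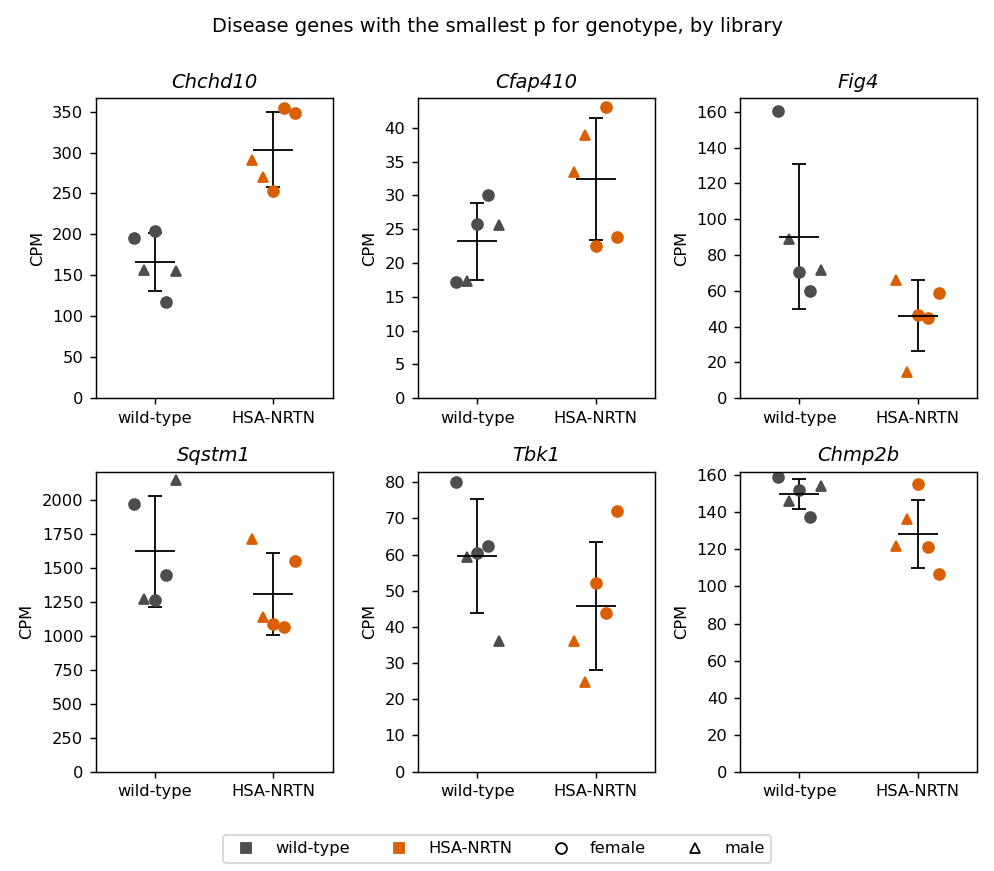
CPM in each of the 10 pools for the 6 disease genes with the smallest p for genotype. Long horizontal lines are means and error bars SD of 5 pools, circles are females and triangles males. For Chchd10 all HSA-NRTN points (253.1 to 354 CPM) lie above all wild-type points (118 to 205 CPM), and for the other 5 genes the groups overlap.

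Among the 9 RNA-binding members, 2 had estimates above 0 and 7 below, with a median log2 fold change of -0.17, and none passed the test. Tardbp encodes TDP-43, the nuclear RNA-binding protein that collects in the cytoplasm of diseased motor neurons. Its levels were 106, 138, 173, 239 and 214 CPM in wild-type and 123, 175, 180.1, 152 and 161 CPM in HSA-NRTN replicates 1 to 5. The HSA-NRTN pools all lay inside the wild-type range, and the log2 fold change was -0.14 (approximate 95% interval -0.62 to 0.35). Of the exon bases of Tardbp 23.3% are shared with Masp2 on the other strand. Masp2 had 0 counts in every library, which does not show how reads on the shared bases were counted. The level given for Tardbp may therefore be too low.

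Hnrnpa2b1, an abundant nuclear ribonucleoprotein, had 263 ± 71.4 CPM in wild-type and 275 ± 106 CPM in transgenic pools, a log2 fold change of 0.06. Its relative Hnrnpa1 was counted at only 0 to 5.70 CPM per library. Of the 50-base words in Hnrnpa1 transcripts 28.2% occur in 20 other annotated genes, so reads that align to several of these places may be missing from its count, and its level is uncertain. Matr3, a protein of the nuclear matrix, had 382 ± 76.2 CPM and 391 ± 132 CPM, and the HSA-NRTN mean was drawn up by replicate 2 at 626 CPM. Its log2 fold change was 0.03 with that library and -0.20 without it. Of the exon bases of Matr3 17.3% are shared with other annotated genes, chiefly Gm28285.

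Atxn2, encoding ataxin-2, and Tia1 encode proteins that enter stress granules. Atxn2 ran from 62.8 to 251.5 CPM in wild-type and from 101 to 184 CPM in HSA-NRTN pools, with a log2 fold change of -0.06. Tia1 had 54.4, 52.4, 51.1, 55.6 and 139.6 CPM in wild-type and 50.7, 40.5, 68.0, 71.8 and 79.4 CPM in HSA-NRTN replicates 1 to 5. Its log2 fold change was -0.18, and it was 0.22 without wild-type replicate 5, which was the only wild-type library above 55.6 CPM.

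Ewsr1 and Taf15 are RNA-binding proteins of the FET family. Ewsr1 had 51.7 ± 15.6 CPM and 46.3 ± 24.4 CPM, with a log2 fold change of -0.17, and it was -0.51 without HSA-NRTN replicate 2, where Ewsr1 was at 86.5 CPM. Of the 50-base words of Ewsr1 15.4% occur in other genes. Taf15 was low, with 8.74 ± 2.01 CPM in wild-type and 7.03 ± 5.96 CPM in transgenic pools. In 3 of 5 HSA-NRTN pools Taf15 was below the wild-type minimum of 6.80 CPM, and replicate 2 was above the wild-type maximum at 16.8 CPM. Its log2 fold change was -0.34 (SE 0.65), and it was -0.92 without that library. Smn1, whose product assembles spliceosomal ribonucleoproteins and whose loss causes spinal muscular atrophy, had 2.52, 8.21, 16.0, 19.4 and 15.9 CPM in wild-type and 13.0, 4.86, 7.88, 17.4 and 6.41 CPM in HSA-NRTN pools. The 2 ranges overlap over most of their width, and the log2 fold change was -0.31 with an SE of 0.60.

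Of the 6 tested members of autophagy and ubiquitin handling, 2 had estimates above 0 and 4 below, with a median of -0.17, and none passed the test. Sqstm1 binds ubiquitin-tagged cargo and delivers it to autophagosomes. It had 1972, 1277, 1269, 1448 and 2154 CPM in wild-type and 1717, 1139, 1086, 1064 and 1549 CPM in HSA-NRTN replicates 1 to 5. Of the HSA-NRTN pools 3 lay below the wild-type minimum, and the log2 fold change was -0.31 (SE 0.23, unadjusted edgeR p 0.195). Tbk1, a kinase that activates such receptors, had 59.6 ± 15.7 CPM and 45.8 ± 17.7 CPM, with a log2 fold change of -0.38 (SE 0.33). Both genes kept a negative estimate in all 25 alternatives, from -0.42 to -0.15 for Sqstm1 and from -0.65 to -0.10 for Tbk1, with no adjusted p below 0.612. Of the exon bases of Sqstm1 17.3% are shared with Mrnip on the other strand.

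Optn, a further autophagy receptor, had 31.3 ± 7.55 CPM and 33.2 ± 13.1 CPM, a log2 fold change of 0.08. C9orf72, the gene of the repeat expansion most often found in inherited ALS, was among the steadiest members. It had 104, 124, 114, 173 and 133 CPM in wild-type and 122, 132, 121, 134 and 112 CPM in HSA-NRTN replicates 1 to 5. All HSA-NRTN values lay inside the wild-type range, and the log2 fold change was -0.06 with an approximate 95% interval of -0.48 to 0.37. Ubqln2, which shuttles tagged proteins to the proteasome, had 353 ± 144 CPM and 289 ± 125 CPM, with a log2 fold change of -0.29, which was -0.51 without HSA-NRTN replicate 2 and -0.07 without wild-type replicate 1. Vcp, an ATPase that pulls tagged proteins out of complexes and membranes, had 122 ± 42.0 CPM and 127 ± 78.6 CPM, with a log2 fold change of 0.05. Since 43.6% of the 50-base words of Vcp occur in other genes, mostly in its copy Vcp-rs, its count may be incomplete, and Vcp-rs itself had 2.84 ± 2.0 CPM and 4.12 ± 2.78 CPM.

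Of the 6 members of the cytoskeleton, cilium and synapse, 4 had estimates above 0 and 2 below, with a median of 0.05. Stmn2 was the steadiest of the 26, with the smallest coefficient of variation, 0.238. Its levels were 3051, 3305, 2922, 3895 and 3686 CPM in wild-type and 3154, 2821, 2944, 2907 and 3215 CPM in HSA-NRTN replicates 1 to 5. All HSA-NRTN pools lay below the wild-type mean of 3372 ± 413 CPM, 2 of them below its minimum, and the log2 fold change was -0.16 with an approximate 95% interval of -0.51 to 0.18.

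Cfap410, a protein of the base of the cilium that binds the kinase Nek1, had the largest estimate of this group. Its levels were 17.2, 17.3, 25.8, 30.1 and 25.6 CPM in wild-type and 33.5, 38.9, 22.5, 43.0 and 23.9 CPM in HSA-NRTN replicates 1 to 5. Of the HSA-NRTN pools 3 lay above the wild-type maximum and 2 inside the range, and the log2 fold change was 0.48 (SE 0.34, edgeR adjusted p 0.999). It was positive in all 25 alternatives, from 0.31 to 0.74. Nek1, which acts at cilia and in DNA repair, had 141 ± 42.0 CPM and 142 ± 28.9 CPM, with a log2 fold change of 0.0034. Pfn1, an actin-binding profilin, had 170 ± 88.9 CPM and 149 ± 73.4 CPM, with a log2 fold change of -0.19.

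Tuba4a, an alpha-tubulin, had 145 ± 51.2 CPM and 156 ± 91.1 CPM, and its log2 fold change of 0.11 became -0.32 without HSA-NRTN replicate 4, where it was at 313 CPM. Of its exon bases 37.3% are shared with Stk16 on the other strand, a gene with 24.8 ± 9.43 CPM and 27.4 ± 7.44 CPM. Unc13a, which primes synaptic vesicles for release, had 35.7 ± 20.0 CPM and 38.7 ± 21.8 CPM, with a log2 fold change of 0.10.

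**Figure D4:**
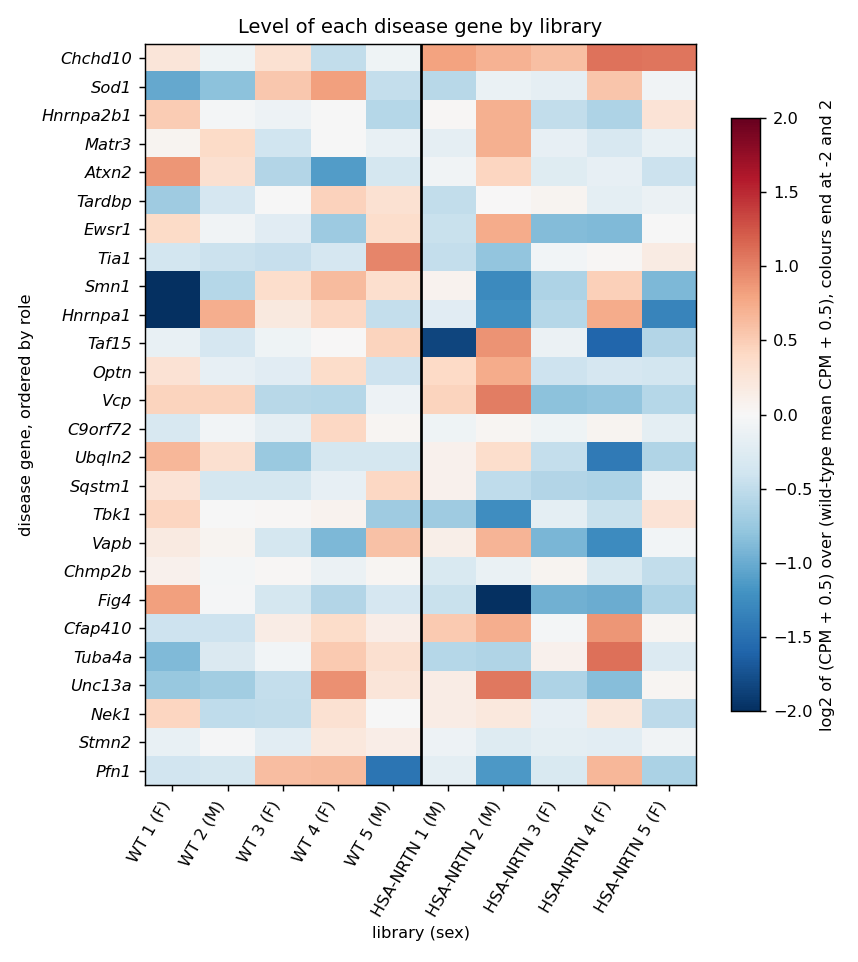
Level of each tested disease gene in each of the 10 pools, as log2 of CPM plus 0.5 relative to the wild-type mean, with genes ordered by role and F or M giving the sex. Chchd10 is above the wild-type mean in all 5 HSA-NRTN pools; most other genes change colour within both groups, and wild-type replicate 1 and HSA-NRTN replicate 2 hold several of the extreme cells.

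Sex was compared with genotype in the model, since each genotype held 3 females and 2 males. The edgeR test called 0 of 26 members, beside 1 of 11630 genes (0.0086%). At an unadjusted p under 0.05 there were 5 members (19.2%), beside 11.2% of all genes, and DESeq2 called 0 members with a smallest adjusted p of 0.122, beside 1.53% of its genes called. Vcp and Vapb were lower in females, and Pfn1, Tbk1 and Sod1 were higher in females. None of these differences passed the adjusted threshold.

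Vcp had a lowest, median and highest level of 68.5, 81.4 and 165 CPM in the 6 females and 165, 247.5, 166 and 113 CPM in the 4 males. Of the females only wild-type replicate 1, at 165 CPM, reached the male range, and the other 5 were at 82.6 CPM or below. The log2 fold change, female over male, was -0.94 (SE 0.30, unadjusted edgeR p 0.00759, adjusted p 0.375). Without wild-type replicate 1 it passed the threshold, at an edgeR adjusted p of 0.0393, in a fit that called 1.46% of 12054 genes. That fit leaves out the only female in the male range, so it gives no separate support for a sex difference. The highest male value of Vcp, 247.5 CPM, was in HSA-NRTN replicate 2, the shallowest library. Mean levels of Vcp were 110 CPM in wild-type females and 140 CPM in wild-type males. They were 73.3 CPM in HSA-NRTN females and 206 CPM in HSA-NRTN males. Vapb had a lowest, median and highest level of 62.1, 98.4 and 169 CPM in females and 161, 239, 155 and 225 CPM in males, with a log2 fold change of -0.86 (SE 0.29, unadjusted edgeR p 0.0107, adjusted p 0.383). Its highest male value, 239 CPM, was also in HSA-NRTN replicate 2.

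Pfn1 had 195 ± 76.7 CPM in females and 105 ± 42.6 CPM in males, with a log2 fold change of 0.88 (SE 0.35, unadjusted edgeR p 0.0244). Sod1 had 729 ± 295 CPM and 449 ± 90.3 CPM, a log2 fold change of 0.70 (SE 0.31, unadjusted edgeR p 0.0419). Tbk1 had 61.8 ± 13.1 CPM and 39.1 ± 14.4 CPM, a log2 fold change of 0.68 (SE 0.29, unadjusted edgeR p 0.0350). In all 3 genes the sexes overlapped.

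**Figure D5:**
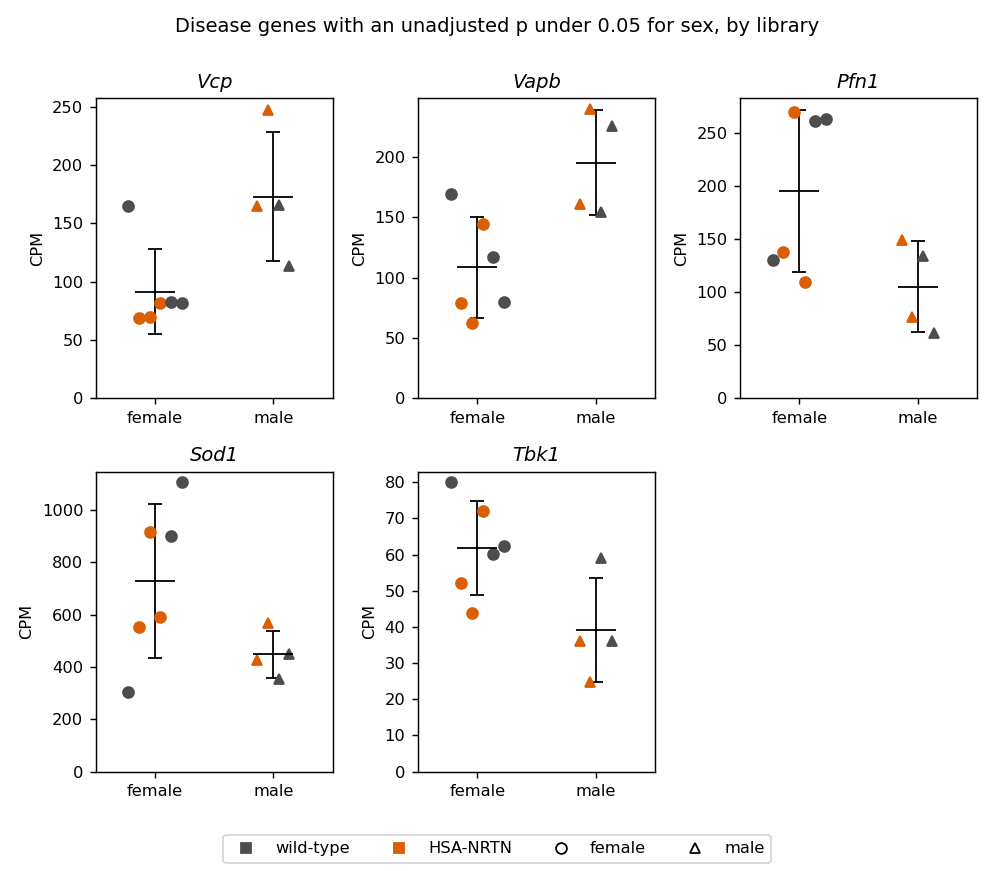
CPM of the 5 disease genes with an unadjusted p under 0.05 for sex, in the 6 female and 4 male pools. Long horizontal lines are means and error bars SD, grey points are wild-type and orange points HSA-NRTN. Vcp and Vapb are mostly higher in males and the other 3 genes mostly higher in females, and the ranges of the sexes overlap in each panel.

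The interaction of genotype with sex was called for 0 of 26 members and for 0 of 11630 genes by edgeR (0%), with 5.14% of all genes at an unadjusted p under 0.05. DESeq2 called 16 of 14361 genes (0.111%), none of them a member. Among males genotype and run of animal numbers cannot be told apart, so an interaction with sex may also hold a difference between runs. That was not tested. With 2 or 3 pools per genotype and sex, 2 members (7.69%) had an unadjusted edgeR p under 0.05, Tia1 and Optn. DESeq2 gave 3 such members, with Vcp beside these, and its share over all genes at that level was not counted. The edgeR interaction of Vcp was -1.14 (SE 0.55, unadjusted edgeR p 0.0551, adjusted p 0.922). Tia1 had mean levels of 53.7 CPM in wild-type females, 96.0 CPM in wild-type males, 73.1 CPM in HSA-NRTN females and 45.6 CPM in HSA-NRTN males, an interaction of 1.52 (SE 0.59, unadjusted edgeR p 0.0230, adjusted p 0.922). The wild-type male mean holds replicate 5 at 139.6 CPM beside 52.4 CPM in the other male. Optn had 35.0, 25.6, 24.1 and 47.0 CPM in the same order, an interaction of -1.42 (SE 0.62, unadjusted edgeR p 0.0394, adjusted p 0.922).

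Genes that work with the members were read from 7 related lists, and edgeR called none of the genes in them for genotype. The 29 tested genes of other motor neuron diseases, among them those of distal motor neuropathies and axonal transport, had 11 estimates above 0 and 18 below, with a median log2 fold change of -0.12. The 25 RNA-binding and stress granule genes had 8 above and 17 below (median -0.06), the 18 genes of the SMN complex and its substrates 6 above and 12 below (median -0.08), and the 37 autophagy and endolysosome genes 15 above and 22 below (median -0.10). The 23 ubiquitin, proteasome and VCP cofactor genes had 15 above and 8 below (median 0.09), the 22 cytoskeletal and presynaptic genes 11 and 11 (median 0.03), and the 8 superoxide and CHCHD partner genes 4 and 4 (median 0.03). These medians lie beside -0.01 over all genes.

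Of the 162 genes tested over these 7 lists, 1 had an unadjusted p under 0.05 (0.617%), beside 4.83% of all genes. It was Smcr8, whose product forms a complex with C9orf72 and Wdr41 that acts in autophagy. Smcr8 had 16.7 ± 10.95 CPM in wild-type and 5.71 ± 3.83 CPM in transgenic pools, with ranges of 6.33 to 35.1 CPM and 0.540 to 9.55 CPM that overlap. Its log2 fold change was -1.51 (SE 0.67, unadjusted edgeR p 0.0392, adjusted p 0.977). The partners of Fig4 and of Sod1 did not pass either: Vac14 had 30.2 ± 16.2 CPM and 37.3 ± 22.7 CPM, and Ccs, the copper chaperone of Sod1, had 11.5 ± 7.11 CPM and 6.998 ± 3.48 CPM, with log2 fold changes of 0.29 and -0.71.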

How the data were processed

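Each of the 10 libraries is 1 pool of about 50 laser-captured cells from 1 mouse, made with Smart-seq2 and Tn5; there are no molecular identifiers and strand is not marked, per the labels' protocols. Reads were aligned with STAR 2.5.0a to GRCm38.p6 and counted with HTSeq, per the submitters' processing notes. Neither the annotation release nor the options of the counter are given. The deposited files hold raw counts for 51912 genes, 92 spike-in sequences and 5 tally entries; the last 2 kinds stayed out of library sizes and tests, and 13.5% to 42.3% of all reads were counted to genes. A deposited table gives a signal that the authors made by dividing counts by 1 size factor per library. It served for symbols, with reference gene names for genes that it does not hold. The authors' deposited comparison table gives log2 fold changes, a Wald score and p-values from DESeq2, per the submitters' processing notes.

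Counts were tested in R 4.3.3 with edgeR 4.0.16 (filterByExpr, TMM scaling, quasi-likelihood F test with its default settings in that version), with Benjamini-Hochberg adjustment over all 11630 genes kept and a call under 0.05. Standard errors were taken from the F statistic, and approximate 95% intervals are normal limits around the estimate. DESeq2 1.42.0 and limma 3.58.1 voom, other scalings, filters and covariates, each sex alone and leaving out libraries were the alternatives. CPM uses TMM-scaled library sizes, and TPM uses the length of the principal transcript in GENCODE M21, which held 51719 of the gene identifiers. Groups and sex came from the labels. All members are named whatever their values. Of each related list, up to 4 genes of smallest p were named among those with an unadjusted p under 0.05. Rnase4, Masp2, Mmp11, Eif3j1, Mrnip, Gm28285, Vcp-rs, Stk16, Vac14 and Ccs were named because they overlap, copy or partner a member. The related lists and markers, like the members, were chosen with earlier results of these data known. Promoter windows are those of RefSeq on GRCm38.p6, and protein sequences were not used here.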

Additional observations from a re-analysis of the deposited data

Results flagged for a closer look

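Of 56 groups of 5 libraries examined for a single value far from the others, 4 held one. Chance alone marks about 1 in 20 such groups if values are normal and independent. CPM values need not be normal, and genes read in the same libraries are not independent, so this rate is only a rough guide. Matr3 was at 626 CPM in HSA-NRTN replicate 2, where the other 4 HSA-NRTN libraries held 307 to 343 CPM. Tia1 was at 139.6 CPM in wild-type replicate 5, where the other 4 wild-type libraries held 51.1 to 55.6 CPM. Tuba4a was at 313 CPM in HSA-NRTN replicate 4, where the others held 95.1 to 154 CPM. Spg11 was at 1.17 CPM in wild-type replicate 3, from 5 counts, where the others held 0 to 0.283 CPM.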

How the results depend on the processing

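Over 25 alternatives 0 of 26 members were called for genotype except in DESeq2, and Chchd10, Fig4, Cfap410, Sqstm1, Tbk1, Chmp2b, Stmn2 and Taf15 kept their direction throughout, while 18 members turned in at least 1. Called members came to 1, Chchd10, in DESeq2 (adjusted p 0.0151) and again in DESeq2 on the genes kept for edgeR (adjusted p 0.0404). Genes called in all, 1 in the edgeR test reported, came to 81 with no filter beyond 1 count, 9 with a stricter filter, 126 in DESeq2, 58 in DESeq2 on the genes kept for edgeR, 3 in limma voom, 5 with sex, 0 with the runs of animal numbers and 10 with genes detected as a covariate, 0 among the females, 0 among the males, 17 in the adjusted-deviance fit and 9 with robust shrinkage. Leaving out 1 library at a time gave 0 to 13 genes called for genotype and 0 to 1 members called for sex. The adjusted-deviance, robust and gene-matched fits and the second length were chosen after seeing the data. No paired analysis was possible because the replicate numbers only count the samples of a group and tie no mouse to another.

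Depth limits Spg11, Ccnf, Ang and Hnrnpa1 most, at 0 to 51 counts per library. The cause of the changes of sign was not tested, and the log2 fold changes of opposite sign stand in brackets. With upper quartile factors the sign turned for Sod1 (0.018). With no filter the sign turned for Nek1 (-0.011). In DESeq2 the sign turned for Nek1 (-0.00040). In limma voom the sign turned for Sod1 (0.12), Matr3 (-0.032), Hnrnpa1 (0.36), Hnrnpa2b1 (-0.037), Atxn2 (0.069), Optn (-0.090), Vcp (-0.19) and Unc13a (-0.14). With sex as a covariate the sign turned for Sod1 (0.023) and Vcp (-0.13). The animal numbers in the titles fall into 2 runs, 1 with 3 HSA-NRTN and 1 wild-type mice and 1 with 2 and 4. Genotype is thus not balanced over them, and the labels do not say whether they mark litters or batches. Both HSA-NRTN males were in the first run and both wild-type males in the second, so genotype and run cannot be told apart among males. With a term for the 2 runs of animal numbers the sign turned for Sod1 (0.33), Tardbp (0.014), Matr3 (-0.095), Hnrnpa1 (0.74), Hnrnpa2b1 (-0.092), Smn1 (0.31), Optn (-0.17), Vcp (-0.37), C9orf72 (0.0055), Pfn1 (0.014) and Nek1 (-0.11). With genes detected as a covariate the sign turned for Atxn2 (0.29), Ewsr1 (0.13), Ubqln2 (0.15), Vapb (0.19) and Tuba4a (-0.43). With HSA-NRTN replicate 2 and also wild-type replicate 1 left out the sign turned for Matr3 (-0.19), Atxn2 (0.12), Optn (-0.057), Vcp (-0.21) and Unc13a (-0.42). In females alone the sign turned for Matr3 (-0.085), Hnrnpa1 (0.10), Hnrnpa2b1 (-0.36), Tia1 (0.46), Optn (-0.52), Vcp (-0.56), Unc13a (-0.51) and Nek1 (-0.24). In males alone the sign turned for Sod1 (0.30), Atxn2 (0.16), Ewsr1 (0.084), Ubqln2 (0.19), Vapb (0.062), Pfn1 (0.21) and Tuba4a (-0.64). In edgeR's adjusted-deviance fit the sign turned for Optn (-0.0025), Unc13a (-0.039) and Nek1 (-0.0046). Leaving out 1 library at a time, the values ran for Sod1 from -0.23 to 0.28, Optn from -0.14 to 0.19, Vcp from -0.34 to 0.20, Nek1 from -0.10 to 0.14 and Matr3 from -0.20 to 0.15. They ran for Hnrnpa2b1 from -0.16 to 0.22, Unc13a from -0.27 to 0.47, Atxn2 from -0.25 to 0.27, Tuba4a from -0.32 to 0.27 and Vapb from -0.42 to 0.061. The others ran for Pfn1 from -0.52 to 0.022, Tardbp from -0.27 to 0.0017, C9orf72 from -0.12 to 0.067 and Tia1 from -0.29 to 0.22.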
